A study of Homo sapiens with 9 samples.

Results

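The miR-26 family guide strands, hsa-miR-26a-5p and hsa-miR-26b-5p, were followed through a trapping experiment with the 3'UTR of PD-L1, the immune checkpoint ligand encoded by CD274. They were taken by name from the count table, where they make up 2 of 2652 mature miRNA names and 3 of 2883 locus rows. The libraries came from ES-2, an established wild-type, untreated cell line derived from ovarian cancer. In miTRAP, a bait RNA with MS2 loops is held on resin by an MS2-binding fusion protein, incubated with cell lysate and eluted together with the RNA bound to it. There were 9 libraries of small RNA, 3 in each group: lysate before trapping (input), material retained by a bait of loops alone (MS2 control), and material retained by the bait with the PD-L1 3'UTR. The amounts of the baits also differed between both trapped groups, so bait sequence and bait amount cannot be told apart. The labels do not say whether replicates came from separate cultures, and if they did not, p-values measure only the spread between these libraries.

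A miRNA guide strand is loaded into Argonaute and finds target RNAs mainly through its seed, bases 2 to 8 from the 5' end, whereas the partner (passenger) strand of the hairpin is mostly discarded. The miR-26 guides are widely expressed miRNAs known for restraining proliferation, with the histone methyltransferase EZH2 among their studied targets. Their hairpins lie in introns of the CTDSP genes, which encode small phosphatases acting on the C-terminal domain of RNA polymerase II and are expressed together with the miRNAs. The mature sequences below (RefSeq, GRCh38.p14) are shown because both guides carry one seed, in capitals, and differ only downstream of it.

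miR-26a-5p: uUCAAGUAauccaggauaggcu

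miR-26b-5p: uUCAAGUAauucaggauaggu

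Counted from the 5' end, the guides were identical at 19 of the 21 positions they share. The differences were C11U and C21U, with the base of miR-26a-5p first, and miR-26a-5p carries 1 further base at its 3' end. miR-26a-5p is encoded on chromosome 3 (37969413 to 37969434, forward strand, hairpin MIR26A1 within CTDSPL) and on chromosome 12 (57824658 to 57824679, reverse strand, hairpin MIR26A2 within CTDSP2). miR-26b-5p is encoded on chromosome 2 (218402657 to 218402677, forward strand, hairpin MIR26B within CTDSP1). All 3 hairpins lay on the strand of their host gene and overlapped 0 exons of its protein-coding transcripts in the GENCODE annotation. The 2 other names that share the seed, miR-1297 and miR-4465, had 0 counts in every library.

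miR-1297: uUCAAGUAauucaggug

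miR-4465: cUCAAGUAgucugaccagggga

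The total miRNA count per library was between 3794799 and 5983577 in the input and between 672824 and 2236535 after trapping, and 408 names passed the filter on low counts. Epithelial markers were scarce in the input, with 41.5 to 55.5 CPM (counts scaled to a common library size) summed over 5 miRNAs of the miR-200 type in the input, where miR-429 was at 0. PD-L1 3'UTR replicate 1 stood apart in miRNAs of other cell types. The 10 listed markers of blood, endothelial, liver, muscle and nerve cells, of which 8 had counts in the input, 8 in the MS2 control and 10 with the PD-L1 3'UTR, summed to 3262 CPM in that library. In the other PD-L1 3'UTR libraries they summed to 682 and 506 CPM, against 214 to 277 CPM in the input and 353 to 484 CPM in the MS2 control. The 5 epithelial markers, too, summed highest there, to 236 CPM, whereas the other PD-L1 3'UTR libraries held 63.1 and 37 CPM and the MS2 control libraries 55.2 to 78.2 CPM. Results without that library are given beside those that use it.

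miR-26a-5p was the more abundant guide in every library. It had 30973, 29812 and 31848 CPM in input replicates 1, 2 and 3 after TMM scaling, which corrects library sizes on the assumption that most miRNAs do not change. That assumption may not hold here, since 60% to 69.9% of miRNAs had an edgeR adjusted p under 0.05 in the comparisons below. The MS2 control libraries held 19276, 24914 and 23733 CPM. The PD-L1 3'UTR libraries held 11024, 10521 and 11567 CPM. By TMM-scaled CPM the 3 groups did not overlap, with the input highest and the PD-L1 3'UTR lowest. By share of library counts the MS2 control was highest instead, at a mean of 2.64% against 2.34% in the input and 1.24% with the PD-L1 3'UTR. How many other miRNAs separate the groups in this way is not given here. By mean CPM, miR-26a-5p ranked 8 of 2652 names in the input, 6 in the MS2 control and 16 with the PD-L1 3'UTR.

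miR-26b-5p followed another course. It had 3532, 3361 and 3416 CPM in the input libraries. In the MS2 control it had 463, 632 and 694 CPM, below every other library. With the PD-L1 3'UTR it had 3972, 3894 and 3634 CPM, again near the input. Its rank by mean CPM was 34 in the input, 68 in the MS2 control and 36 with the PD-L1 3'UTR. Even its smallest count, 716 reads in MS2 control replicate 1, gave a share of library counts of 0.0576% with a 95% Wilson interval from 0.0536% to 0.0620%, which covers counting error only.

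**Figure D1:**
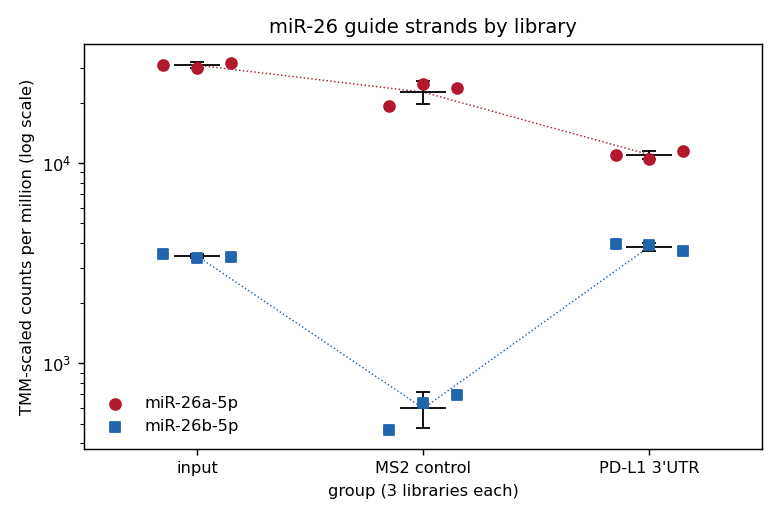
TMM-scaled CPM on a log axis for miR-26a-5p (circles) and miR-26b-5p (squares) in the 9 libraries, with horizontal marks for group means, dotted lines joining them and bars for the SD (n = 3). miR-26a-5p steps down from the input to the MS2 control and the PD-L1 3'UTR, whereas miR-26b-5p drops from 3436 to 596 CPM in the MS2 control and stands at 3833 CPM in the PD-L1 3'UTR libraries.

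The MS2 control measures what loops and resin retain by themselves, and the PD-L1 3'UTR was set against it, with the difference in bait amount included. Here the guides moved in opposite directions. miR-26b-5p rose from 596 ± 120 (SD, n = 3) to 3833 ± 177 CPM, a 6.43-fold higher mean, and miR-26a-5p fell from 22641 ± 2974 to 11038 ± 523 CPM, a 2.05-fold lower mean. CPM are relative to the other miRNAs of a library, and the total RNA each bait retained is not known here. A lower CPM therefore need not mean that less of a miRNA was retained. In edgeR's quasi-likelihood test over all 408 miRNAs, the log2 fold change was 2.68 ± 0.16 (SE, adjusted p of 1.70e-07) for miR-26b-5p. For miR-26a-5p it was -1.04 ± 0.12 (SE, edgeR adjusted p of 2.30e-05). In this comparison 60% of all miRNAs tested passed the threshold (an adjusted p under 0.05), 31.4% as higher and 28.7% as lower, so a call by itself was common. Among the 408 log2 fold changes, miR-26b-5p stood at the 87.6th percentile and miR-26a-5p at the 26.6th. Without PD-L1 3'UTR replicate 1 the log2 fold changes were 2.69 and -1.0.

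**Figure D2:**
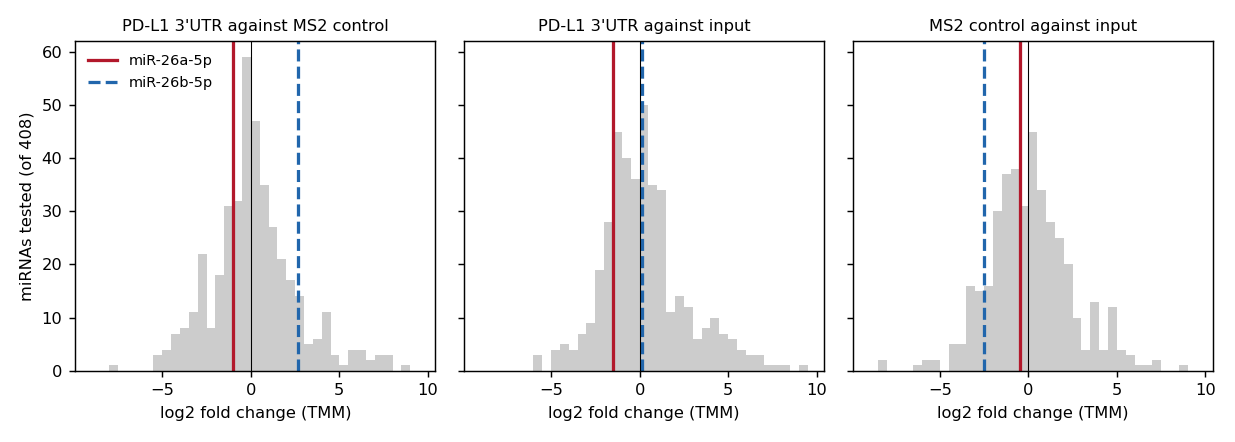
Histograms of the log2 fold changes of all 408 miRNAs tested in each comparison (bins of 0.5), with vertical lines at miR-26a-5p (solid) and miR-26b-5p (dashed) and a thin black line at 0. Against the MS2 control the lines fall on opposite sides of 0, at -1.04 and 2.68, and in the MS2 control against the input both lie below 0.

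Against the input, retention by the 3'UTR bait is set against abundance in the lysate. miR-26a-5p was 2.80-fold lower with the PD-L1 3'UTR than in the input by mean CPM, with a log2 fold change of -1.48 ± 0.12 (SE, edgeR adjusted p of 2.15e-06). The level of miR-26b-5p was not shown to differ, with a log2 fold change of 0.16 ± 0.15 (SE, edgeR adjusted p of 0.369) and a 95% interval from -0.18 to 0.49, although the 3 PD-L1 3'UTR libraries all lay above the 3 input libraries. Of all miRNAs tested, 66.4% passed the threshold, 34.1% as higher and 32.4% as lower. The scaling mattered here, since with library totals in place of TMM the median of all 408 miRNAs rose from 0.04 to 0.60, and 192 miRNAs were higher and 89 lower against 139 and 132 with TMM. On that scale miR-26b-5p passed the threshold at 0.73 (edgeR adjusted p of 0.00069), which is 0.12 above the median miRNA, as with TMM. miR-26a-5p stood at -0.91 and stayed past the threshold. Without PD-L1 3'UTR replicate 1, the TMM values were -1.54 for miR-26a-5p and 0.08 for miR-26b-5p.

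In the background eluate itself, the MS2 control against the input, both guides were lower with TMM. miR-26b-5p fell by 2.53 on the log2 scale (SE 0.16, edgeR adjusted p of 5.45e-07), a 5.76-fold lower mean. With library totals its fall was smaller, at -1.91, and its mean share of library counts was 3.75-fold lower. miR-26a-5p had -0.45 ± 0.12 (SE, edgeR adjusted p of 0.00589), a 1.36-fold lower mean, but with library totals it had 0.18 (edgeR adjusted p of 0.137) and its share of library counts was higher in the MS2 control, at 2.64% ± 0.214 (SD, n = 3) against 2.34% ± 0.021. Relative to the median of all miRNAs it stood at -0.47 under either scaling. In this comparison 69.9% of miRNAs passed the threshold, 32.8% as higher and 37% as lower. With library totals 199 were higher and 104 lower, against 134 and 151 with TMM. The comparisons share libraries, since a low MS2 control level enters both the fall against the input and the rise with the PD-L1 3'UTR.

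**Figure D3:**
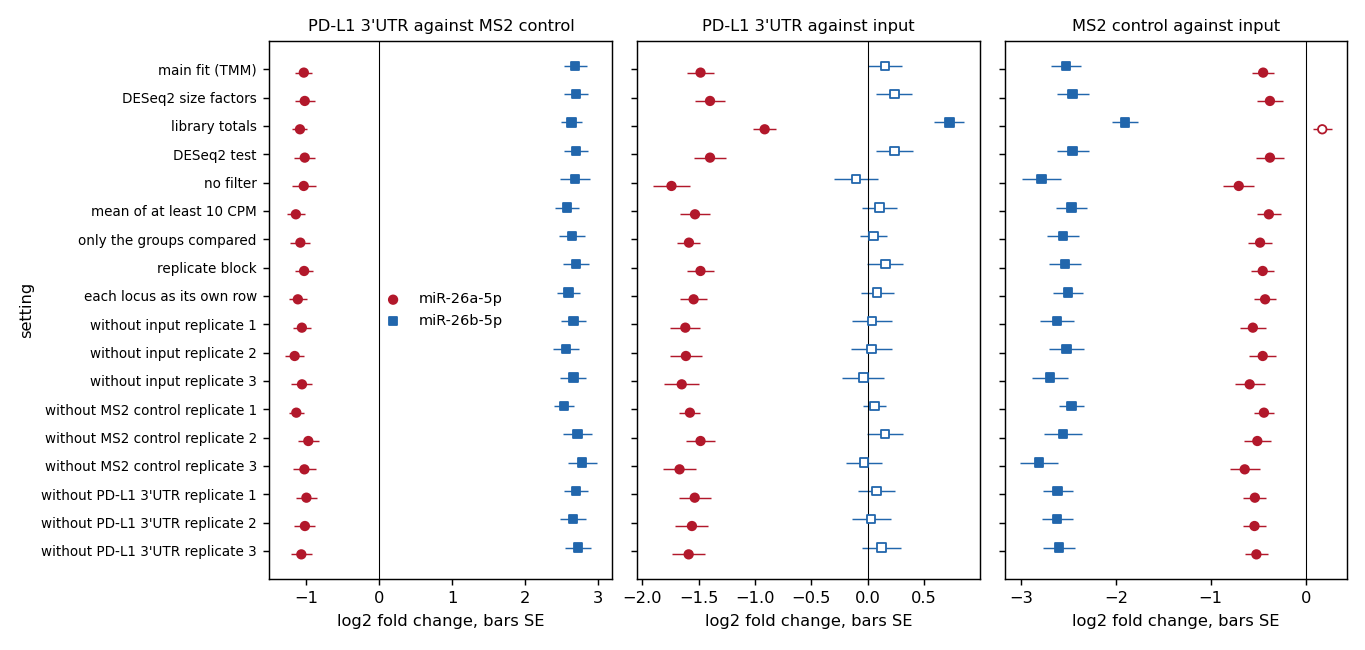
Log2 fold changes of miR-26a-5p (circles) and miR-26b-5p (squares) in the 3 comparisons with TMM (top row) and under each alternative, with bars for the SE and filled symbols for an adjusted p under 0.05. Against the MS2 control every symbol is filled and keeps its side of 0, whereas miR-26b-5p against the input lies near 0 and is filled only with library totals.

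The make-up of the family does not depend on scaling, because both guides are counted in the same library. miR-26b-5p made up 10.2%, 10.1% and 9.69% of the miR-26 guide reads in the input libraries. In the MS2 control libraries it made up 2.35%, 2.48% and 2.84%. With the PD-L1 3'UTR it made up 26.5%, 27.0% and 23.9%. The groups did not overlap, and the spread within each was small beside the steps between them. As a ratio, there were 8.99 ± 0.30 (SD, n = 3) reads of miR-26a-5p for each read of miR-26b-5p in the input, 38.4 ± 3.81 in the MS2 control and 2.89 ± 0.26 with the PD-L1 3'UTR. The mean log2 ratio with the PD-L1 3'UTR was 3.73 lower than in the MS2 control and 1.64 lower than in the input, and that of the MS2 control was 2.09 higher than the input. Each of these 3 differences gave p = 0.1 in an exact two-sided permutation test (adjusted p = 0.1 over the 3), the smallest value that 3 libraries against 3 allow. The sum of both guides was dominated by miR-26a-5p, with 34314 ± 1059 CPM in the input, 23237 ± 3081 in the MS2 control and 14870 ± 408 in the PD-L1 3'UTR eluates (SD, n = 3).

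**Figure D4:**
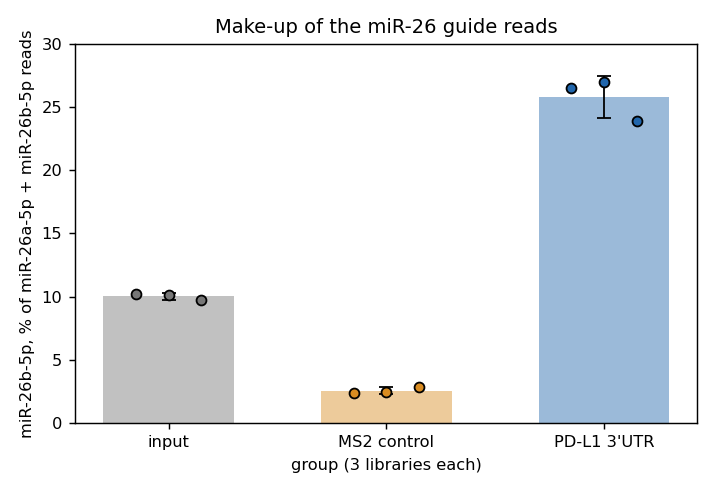
Share of miR-26b-5p among the reads of both miR-26 guides, in percent, with points for libraries, bars for group means and error bars for the SD (n = 3). The share is 10% in the input, 2.55% in the MS2 control and 25.8% with the PD-L1 3'UTR.

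The split between guides was large among miRNAs that share a seed. The 371 tested miRNAs with a sequence in the RefSeq table formed 135 pairs with identical seeds, some of which share members. Their log2 fold changes over the MS2 control differed within a pair by a median of 0.89, against 3.72 for the miR-26 guides. Only 3 pairs differed by more, miR-301b-3p and miR-454-3p (5.47), miR-362-5p and miR-500b-5p (3.97), and miR-148a-3p and miR-152-3p (3.73). In that order, their scarcer members had 89, 148 and 15676 reads over the 9 libraries. In 2 of the 135 pairs both members passed the threshold in opposite directions. Besides the miR-26 guides these were miR-27a-3p, at -0.95 ± 0.16, and miR-27b-3p, at 0.60 ± 0.15 (SE). Against the input the miR-26 difference was 1.64, with 40 of the 135 pairs above it. Without PD-L1 3'UTR replicate 1 the miR-26 differences were 3.70 over the MS2 control, with 3 pairs above it, and 1.62 against the input, with 40 above it. Among those 3, miR-148a-3p and miR-148b-3p stood in place of miR-148a-3p and miR-152-3p. The 2 pairs called in opposite directions over the MS2 control were the same. Same-seed pairs were examined after the values of the guides were known and are a description.

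Reads of miR-26a-5p were split almost evenly between its identical copies, with 49.5% to 51.1% on chromosome 3 in the 9 libraries. Counts therefore cannot tell whether CTDSPL or CTDSP2 supplied the guide, and reads of both loci were summed.

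The passenger strands are distinct for each hairpin and are shown because they separate the copies that share a guide, with bases 2 to 8 in capitals.

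miR-26a-1-3p: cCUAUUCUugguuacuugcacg

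miR-26a-2-3p: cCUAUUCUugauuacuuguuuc

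miR-26b-3p: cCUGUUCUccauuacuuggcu

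All passenger strands were scarce. miR-26a-2-3p, from the CTDSP2 hairpin, had 25, 23 and 42 reads in the input libraries. The MS2 control libraries held 30, 36 and 22 reads of it, and the PD-L1 3'UTR libraries 8, 10 and 7. miR-26a-1-3p, from the CTDSPL hairpin, had 13 reads over all 9 libraries and did not pass the filter. miR-26b-3p had 4, 1 and 0 reads in the input libraries. The MS2 control libraries held 4, 27 and 12 of its reads, and the PD-L1 3'UTR libraries 10, 2 and 8. Per 100000 reads of its guide, miR-26b-3p reached 13.0 reads in the input, 1332 in the MS2 control and 148 with the PD-L1 3'UTR. These values pool the reads of a group, and single libraries held 0 to 29.8 (input), 559 to 1693 (MS2 control) and 68.9 to 178 (PD-L1 3'UTR). For miR-26a-2-3p the pooled values were 25.9, 71.0 and 63.5, and single libraries held 21.2 to 29.7, 57.3 to 101 and 43.9 to 128.

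In edgeR's test, miR-26b-3p was higher than the input in both trapped groups, by 3.91 ± 0.88 (SE, adjusted p of 0.00237) in the MS2 control and by 3.44 ± 0.94 (adjusted p of 0.00795) with the PD-L1 3'UTR. Both folds rest on 5 input reads. Without input replicate 1 they were 5.16 and 4.64, without input replicate 3 they were 3.15 and 2.63, and these were the extremes as single libraries were left out. Both stayed past the threshold in each of these fits. Between the trapped groups miR-26b-3p had -0.47 ± 0.75 (SE, edgeR adjusted p of 0.605), with a 95% interval from -2.13 to 1.19, so a rise as large as that of its guide lay outside this interval. miR-26a-2-3p passed the threshold as higher in the MS2 control eluates than in input, at 1.07 ± 0.40 (SE, edgeR adjusted p of 0.0341). It passed as lower with the PD-L1 3'UTR than in the MS2 control, at -1.14 ± 0.44 (SE, edgeR adjusted p of 0.0459). These calls were lost in 7 and 8, respectively, of 9 repeats of the fit without a single library, with values from 0.84 to 1.19 and from -1.65 to -0.87.

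Other miRNAs placed the guides in context. Of 9 miRNAs that likewise come from introns of paralogous host genes, 4 were tested, and 2 of these rose over the MS2 control and 0 fell, where 31.4% of all miRNAs rose and 28.7% fell, with a median log2 fold change of 0.63 against 0.02 for all miRNAs. miR-103a-3p and miR-107, from introns of the pantothenate kinase genes, had 1.03 ± 0.15 and 1.16 ± 0.21 (SE), and unlike the miR-26 guides both members moved the same way. Both were lower than the input with the PD-L1 3'UTR, at -2.35 ± 0.16 and -2.02 ± 0.21 (SE). Of 4 other miRNAs known to target EZH2, 2 were tested and both rose over the MS2 control, miR-101-3p by 1.59 ± 0.16 and miR-138-5p by 2.08 ± 0.19 (SE), beside 31.4% of all miRNAs. In the MS2 control both were lower than in the input, at -1.18 ± 0.16 and -1.86 ± 0.19 (SE). With the PD-L1 3'UTR they stood at 0.41 ± 0.15 and 0.22 ± 0.18 (SE) against the input, with edgeR adjusted p of 0.0374 and 0.295. Without PD-L1 3'UTR replicate 1 these counts over the MS2 control were the same for both lists.

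Among larger guide families, all 9 let-7 members fell against the MS2 control, beside 28.7% of all miRNAs, with a median log2 fold change of -2.88. Beside 31.4% of all miRNAs that rose, 4 of 5 miR-30 guides rose and 0 fell, with a median of 1.6, and all 6 guides of the miR-17 seed rose, with a median of 6.43. miR-26a-5p thus lay between the medians of let-7 and of all miRNAs, and miR-26b-5p between the medians of miR-30 and miR-17. No members of these 3 families both passed the threshold in opposite directions over the MS2 control. Without PD-L1 3'UTR replicate 1 the numbers called over the MS2 control were the same in each family and the medians were -2.84, 1.69 and 6.58. In the MS2 control against the input, the medians were 1.72 for let-7, -0.79 for miR-30 and -2.18 for miR-17. The level in the MS2 control thus enters the values above. With the PD-L1 3'UTR against the input, the medians were -1.51, 0.42 and 3.81, in the same order.

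The guides' neighbours by input level behaved in varied ways. Next to miR-26a-5p (30878 ± 1021 CPM in the input, SD, n = 3) stood miR-30a-5p above it, at 31181 ± 2907 CPM, and miR-222-3p below it, at 28695 ± 2893 CPM, and the 3 input ranges overlapped. With the PD-L1 3'UTR these neighbours had 41837 ± 2991 and 30422 ± 6699 CPM, against 11038 ± 523 CPM for miR-26a-5p. miR-221-3p, the next above, had 12620 ± 624 CPM there, and miR-7-5p, the next below, 1683 ± 165 CPM. Means without replicate 1 were 43564 CPM for miR-30a-5p, 28040 for miR-222-3p, 12911 for miR-221-3p, 1602 for miR-7-5p and 11044 for miR-26a-5p. Next to miR-26b-5p (3436 ± 87.5 CPM in the input) stood miR-25-3p, at 3540 ± 593 CPM, and miR-148b-3p, at 3248 ± 139 CPM. In the MS2 control miR-25-3p had 3722 ± 235 CPM, whereas miR-148b-3p had 447 ± 119 CPM, close to the 596 ± 120 CPM of miR-26b-5p. With the PD-L1 3'UTR they had 3261 ± 202 and 8796 ± 1254 CPM, against 3833 ± 177 CPM for miR-26b-5p. miR-423-5p, the next above, had 9968 CPM in the MS2 control and 468 with the PD-L1 3'UTR, and miR-199b-3p, the next below, 1647 and 3320. Means without PD-L1 3'UTR replicate 1 were 3373 CPM for miR-25-3p, 9440 for miR-148b-3p, 474 for miR-423-5p, 3328 for miR-199b-3p and 3764 for miR-26b-5p.

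Across the 9 libraries, the log2 CPM of the guides was not alike, with Pearson's r of -0.25 between them. The 5 miRNAs most like miR-26a-5p were miR-7-5p, miR-183-5p, miR-378a-3p, miR-138-1-3p and miR-941, with r from 0.96 to 0.99. The 5 most like miR-26b-5p were miR-181b-5p, miR-138-5p, miR-23a-3p, miR-181a-5p and miR-16-5p, with r from 0.98 to 0.99. miR-181b-5p came closest, with 2143 ± 63.8 CPM in the input, 458 ± 26 in the MS2 control and 2274 ± 266 with the PD-L1 3'UTR (SD, n = 3). The libraries fall into 3 groups and each value shares its library's depth and scaling with all other miRNAs, so these coefficients mostly describe the order of the group levels. Over the 8 libraries without PD-L1 3'UTR replicate 1, r between the guides was -0.13, and 4 of the 5 miRNAs named for each guide remained among its 5 most alike.

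**Figure D5:**
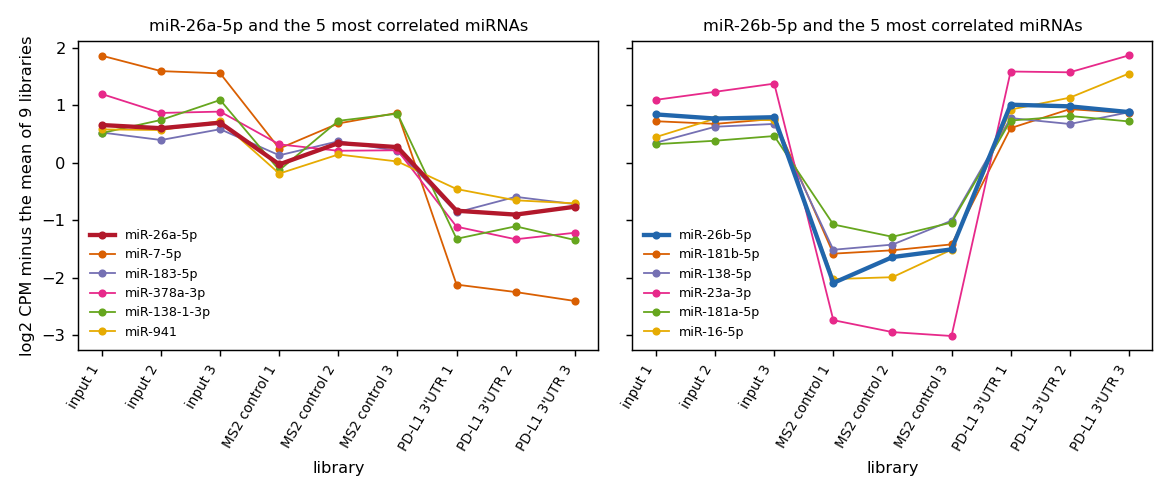
Log2 CPM minus the mean over 9 libraries for miR-26a-5p (left, thick line) and miR-26b-5p (right, thick line), each with the 5 miRNAs of highest Pearson's r. On the left levels fall from the input to the PD-L1 3'UTR, and on the right they dip in the MS2 control alone.

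The annotated 3'UTR of CD274, and not the bait itself, was searched for matches to the shared seed. In the longest annotated 3'UTR of CD274 (2704 bases, cut from the GENCODE transcript sequence), the match to bases 2 to 8, TACTTGA, occurred 0 times. The form with an added A, TACTTGAA, the match to bases 2 to 7 with A, ACTTGAA, and the bare ACTTGA also occurred 0 times. ACTTGA lies within the longer ones, and only the sense strand was searched. Of 4555 human 3'UTRs at least as long, cut to the same length, 61% held ACTTGA, 30% held ACTTGAA, 19.3% held TACTTGA and 7.88% held TACTTGAA. How far the bait covers the annotated 3'UTR was not analysed here. The absence says only that these letters are not in this sequence, and since both guides carry the same seed it applies to both alike.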

How the data were processed

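Per the submitters' processing notes, the authors removed adapters with cutadapt 1.18, aligned reads with Bowtie2 2.2.6 to hg38 and counted them with featureCounts 1.6.3, and the study's methods name miRBase as annotation. The methods also name GRCh37, and how reads fitting several loci were assigned is not given in the sources used here. The deposited values are raw counts per mature miRNA locus, not normalized. No column of other samples was present.

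Counts of loci with 1 name were summed. Names were kept by filterByExpr (408 of 2652, with 99.68% to 99.93% of counts), scaled by TMM, and 1 model of 3 group means was fitted to all 9 libraries with edgeR 4.0.16 in R 4.3.3 (glmQLFit, glmQLFTest, two-sided). Adjusted p is Benjamini-Hochberg over all miRNAs tested, with a threshold of 0.05, and the SE is the log2 fold change over the square root of F. A floor of 3 counts equals 0.676 to 4.02 CPM. Log2 CPM for correlations used a prior count of 1. Each small RNA read spans the miRNA, so CPM were not divided by length. All replicate pairs differed beyond sampling noise, with a chi-square of 10.4 to 192 per degree of freedom. Between replicates 2 and 3 it was 10.4 in the input, 37.7 in the MS2 control and 21.9 with the PD-L1 3'UTR. Pairs that held replicate 1 had 116 to 192, so replicate 1 stood apart in every group. On simulated counts of the 408 miRNAs, 200 were changed by 2 on the log2 scale in the PD-L1 3'UTR group, up or down at random. Of these 87.9% were recovered, and 2.98% of calls against the MS2 control were false. The simulated libraries were independent, the input and the MS2 control had the same means, and no replicate stood apart. The real libraries differ in each of these respects, so these rates check the procedure and do not give the false share in these data.

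Alternatives were DESeq2 1.42.0 and its size factors, library totals, no filter, a minimum mean of 10 CPM, fits of the compared groups alone, a replicate block, separate loci and leaving out each library. Lists, same-seed pairs, neighbours and correlations were also computed without PD-L1 3'UTR replicate 1, an alternative chosen after seeing the data. They were not computed without replicate 1 of the input or of the MS2 control. Named miRNAs were the guides, their passenger strands, names with the same seed, the 5 most correlated with each guide, up to 2 neighbours on each side in input level, and listed families. The members and lists were chosen with earlier results of these data known. The reference genome given was GRCh37, so miRNA coordinates come from RefSeq (GRCh38.p14) and the 3'UTRs from transcript sequences, 1 per gene, the longest. Permutation tests used scipy 1.17.1.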

Additional observations from a re-analysis of the deposited data

How the results depend on the processing

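Against the MS2 control, both guides kept their direction and their side of the threshold in all 8 alternatives and all 9 fits without 1 library. miR-26b-5p ranged from 2.57 to 2.69 under the alternatives and from 2.53 to 2.78 without a library, and miR-26a-5p from -1.15 to -1.02 and from -1.16 to -0.98. Against the input, miR-26b-5p depended on the setting, with 0.73 under library totals, -0.10 with no filter, and -0.038 to 0.16 without a library, where it was below 0 without input replicate 3 or MS2 control replicate 3. The fall of miR-26a-5p against the input ranged from -1.74 to -0.91. In the MS2 control against the input, miR-26a-5p turned to 0.18 with library totals and ranged from -0.70 to -0.38 under the other alternatives and from -0.64 to -0.44 without a library. Library totals differ from TMM only in scaling, and the cause of the shift of all miRNAs was not tested. miR-26a-2-3p against the input, -0.07 with the PD-L1 3'UTR, had 0.02 with DESeq2's size factors, 0.50 with library totals, 0.028 with DESeq2, and -0.67 to 0.13 without a library. Numbers of miRNAs past the threshold stayed within 1.5 times, from 220 to 323, 242 to 362 and 247 to 361 under the alternatives for the 3 comparisons. The differences of the log2 ratio of the guides moved by at most 0.08 in size without a library, from -3.81 to -3.67, from -1.71 to -1.60 and from 2.03 to 2.17.

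No pairing of the libraries by replicate number was seen. Deviations of same-numbered libraries correlated from -0.209 to 0.12, and a library correlated best with its own number in 6 of 18 cases. With 3 libraries in each group these values cannot exclude a batch shared by number. In every group the pairs with replicate 1 differed most by chi-square, and the cause was not tested. With the number as a replicate block, miR-26b-5p had 2.69 against the MS2 control, 0.16 against the input and -2.54 in the MS2 control against the input. miR-26a-5p had -1.03, -1.48 and -0.45. The block changed no call of the guides and gave 243, 263 and 276 miRNAs past the threshold against 245, 271 and 285. The calls of miR-26a-2-3p were lost under it. Depth limits the passenger strands, with at most 42 reads in any library, and not the guides.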
